A study of Macaca mulatta with 252 samples.

Results

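Receptors for glutamate and GABA (gamma-aminobutyric acid) were followed through the cortical layers and areas, the hippocampal fields and the lateral geniculate nucleus (LGN) of the rhesus macaque. The members were all genes with a symbol starting GRIA, GRIN, GRIK or GRID and a digit, GRM and a digit, GABR or GABBR, taken from probe sets with a single gene symbol. This gave 22 of 14133 genes, 11 for glutamate and 11 for GABA, and no GABBR gene was among them. A gene with several probe sets was read from the brightest, and 12 of the 22 had a mean above 4.76, the median of all probe sets on the log2 scale. GRID2IP was matched by its symbol, but it encodes a scaffold protein that binds a delta receptor and is not itself a subunit.

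Glutamate opens AMPA, kainate and NMDA receptors, which are assembled from subunits of the GRIA, GRIK and GRIN families and carry most fast excitation in the brain. GABA opens chloride channels built from the GABR subunits, which carry most fast inhibition, and the choice of alpha subunit sets where a receptor sits and how it responds to drugs. Metabotropic receptors, such as those of the GRM family, act through G proteins instead of a channel.

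Tissue was cut by laser capture from adult monkeys, and the RNA of each piece was amplified and measured on 1 array. The 225 experimental arrays formed 57 region groups, 54 with 4 arrays and 3 with 3 arrays, from 6 animals, of which the males are called A, B, C below and the females D, E, F. The frontal areas were ACG (anterior cingulate gyrus), OFC (orbitofrontal) and DLPFC (dorsolateral prefrontal). The sensory and motor areas were M1 (motor), S1 (somatosensory), A1 (auditory), V1 and V2 (visual) and MT (middle temporal), and TE is a further temporal area. The hippocampal arrays covered DG (dentate gyrus) and the CA fields CA1, CA2 and CA3, and those of the LGN its magnocellular, parvocellular and koniocellular divisions. Male B contributed only ACG, OFC and DLPFC, and female F only MT. Male A had no OFC or DLPFC array, and male C had no ACG array. No group was treated or genetically altered, and since the labels name the animal of each array, replicates were separate animals.

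The lowest array median was 4.72 and the highest 5.0 (log2), and the correlation of an array with its own group had a median of 0.988 and a minimum of 0.953. Defining genes followed the labels: the median of CUX2, an upper layer transcription factor, was 9.91 in layer 2 and 3.98 in layer 6. PROX1, a factor of dentate granule cells, had a median of 10.21 in DG and of 6.36 to 6.60 in the CA fields, and TCF7L2, a thalamic factor, reached 12.70 in the LGN. The labels do not say in which amplification batch an array was made. As a stand-in, the areas were divided into 2 sets by the spread of 6 hybridisation control probe sets (A1, ACG, M1, S1, TE and V1 against the others), and comparisons between areas and structures are given with their value within these sets. These sets need not match the batches. Area or structure and batch therefore cannot be told apart, also where a call stands within a set.

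**Figure D1:**
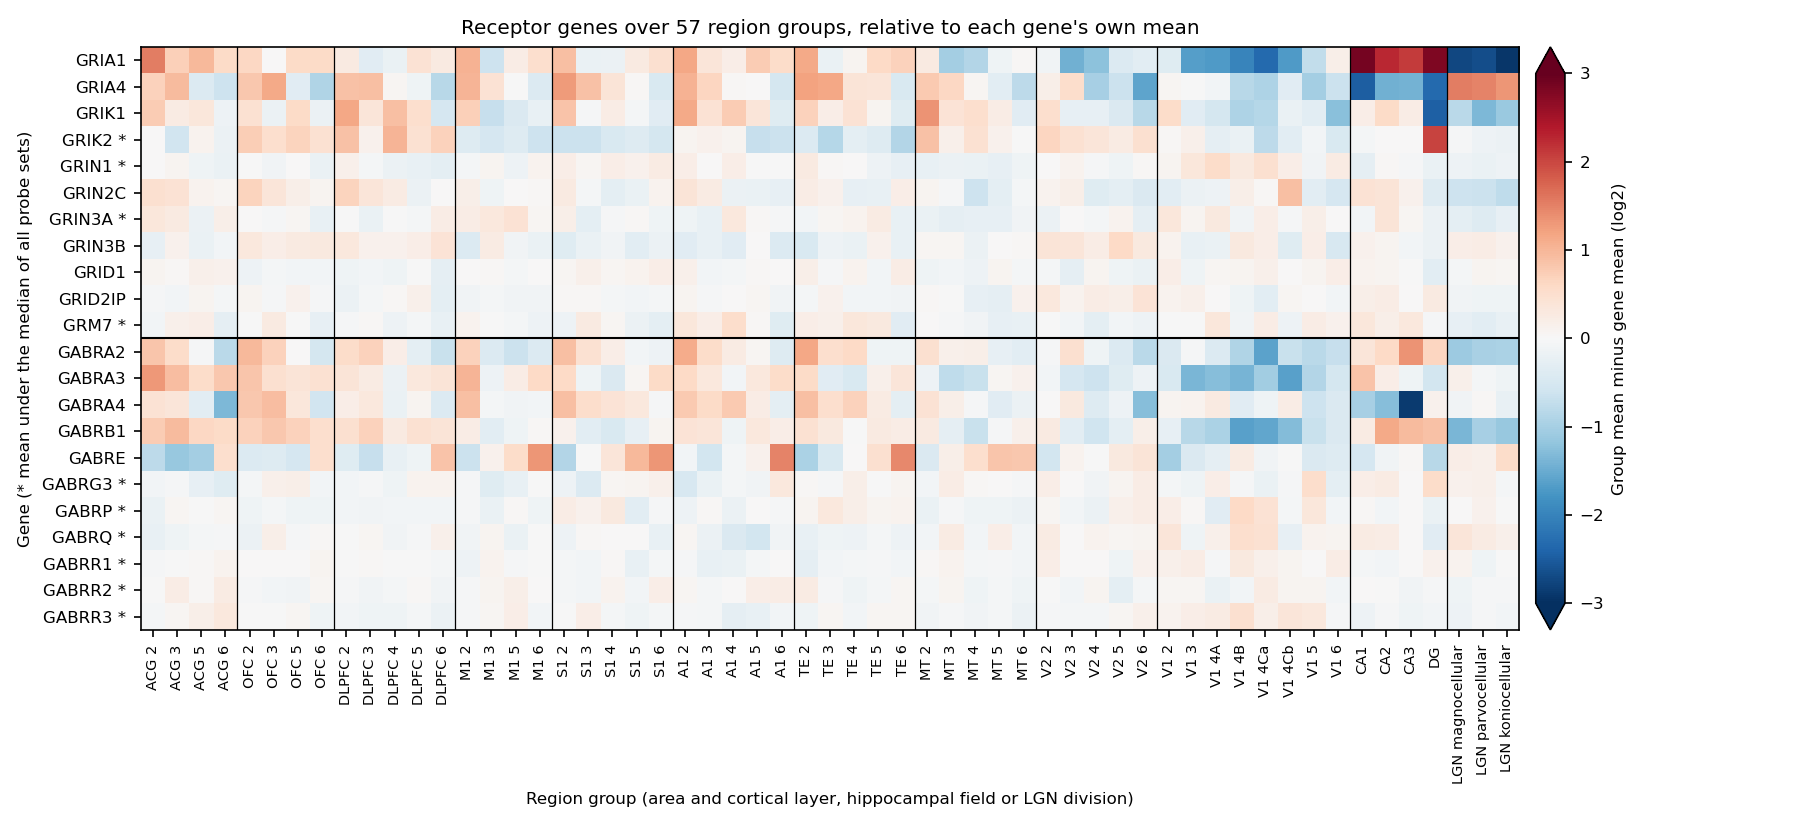
Each row is a receptor gene and each column 1 of the 57 region groups. Colour gives the group mean minus that gene's own mean over the groups on the log2 scale, and an asterisk marks the 10 genes with a mean under the median of all probe sets. GRIA1 and GRIA4 run in opposite directions in the hippocampus and the LGN, and most genes marked with an asterisk stay near 0, with GRIK2 in DG as the exception.

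The range of the 57 group means had a median of 2.84 over these 12 members, against 1.25 over all genes above the median. GRID1, GRID2IP and GRIN3B had ranges under that of all genes. Of the 12, GABRA3 exceeded the median of all probe sets in 52 groups, GABRE in 47, and the other 10 in all 57. The SD of these members had a median of 0.16 over 9 control arrays of CA3 tissue and of 0.24 over the CA3 arrays of 4 animals.

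Among the AMPA subunits, GRIA1, whose insertion into synapses accompanies potentiation in the hippocampus, had the widest range of all members. Its group mean went from 5.72 ± 0.30 (SD, n = 4) in the koniocellular LGN to 11.50 ± 0.27 (SD, n = 4) in CA1, a 54.9-fold span. The highest 4 group means were those of the hippocampal fields, followed by 10.17 ± 0.40 in layer 2 of ACG. The lowest 3 were those of the LGN, followed by 6.31 ± 1.05 in layer 4Ca of V1. That layer 4Ca mean includes a low array of female E, described below with the layers of V1, and layer 4B of V1 was close at 6.65. GRIA4, a subunit of fast AMPA receptors, was lowest in CA1, at 6.34 ± 0.21 (SD, n = 4), and highest in the magnocellular LGN, at 10.34 ± 0.30 (SD, n = 4), a 16.1-fold span. Within the LGN its 3 group means of 10.12 to 10.34 did not differ beyond their spread.

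The kainate subunit GRIK1 spanned 14-fold, from 5.81 ± 0.16 in DG to 9.61 ± 0.28 in layer 2 of MT (SD, n = 4). GRIK2, another kainate subunit, was under the median of all probe sets in 41 groups and ran from 3.69 ± 0.43 in layer 6 of TE to 6.61 ± 0.33 in DG (SD, n = 4). Among NMDA subunits, GRIN2C lay between 5.11 in the koniocellular LGN and 6.76 in layer 4Cb of V1, and GRIN3B, a glycine-binding subunit, between 5.02 in layer 6 of V1 and 6.09 in layer 5 of V2. The delta subunit GRID1 (5.76 in DG to 6.32 in layer 6 of TE) and GRID2IP (8.15 in layer 4Ca of V1 to 8.88 in layer 6 of V2) had the narrowest ranges among the 12 brighter members, 0.55 and 0.72.

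Of the GABA-A subunits, GABRA4, an alpha subunit known in rodents from receptors outside the synapse in thalamus and DG, went from 6.20 ± 0.52 in CA3 to 10.00 ± 0.12 in layer 3 of OFC (SD, n = 4). GABRA2, an alpha subunit of synaptic receptors in forebrain, was lowest in layer 4Ca of V1 (7.09 ± 0.74) and highest in CA3 (10.05 ± 0.20). GABRA3, a further alpha subunit, was lowest in layer 4Cb of V1 (4.03 ± 0.28) and highest in layer 2 of ACG (6.96 ± 0.94). GABRB1, a beta subunit, was lowest in layer 4B of V1 (8.62 ± 0.43) and highest in CA2 (11.38 ± 0.25). GABRE, the epsilon subunit, was lowest in layer 3 of ACG (4.19 ± 0.27) and highest in layer 6 of A1 (6.81 ± 0.69). All 5 thus varied by over 6-fold between region groups.

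The remaining 9 members were dim and varied little. GRIN1, the subunit shared by all NMDA receptors, ran from 3.75 in layer 6 of DLPFC to 4.59 in layer 4A of V1, and GRIN3A from 3.20 in the parvocellular LGN to 4.01 in layer 5 of M1. GRM7, a presynaptic metabotropic receptor, ran from 3.20 in layer 6 to 4.08 in layer 4 of A1. The gamma subunit GABRG3 ran from 3.63 in layer 2 of A1 to 4.65 in DG. Layer 4B of V1 held the highest group mean of 4 dim members: GABRP, the pi subunit, reached 5.09 there from 4.15 in layer 4A of V1, and GABRQ, the theta subunit, reached 4.71 from 3.65 in layer 5 of A1. The others were the rho subunits GABRR1, at 3.79 against 3.23 in layer 2 of TE, and GABRR3, at 3.75 against 2.99 in layer 4 of A1. GABRR2 ran from 4.31 in layer 5 of V2 to 4.85 in layer 6 of ACG. A dim probe set gives no order of regions, and none of these 9 entered a test.

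Patterns over the 57 group means were set side by side for the 6 brighter members with the widest range, as a description, since groups of 1 animal share their tissue. GRIA1 was most like GABRB1 (Pearson r = 0.85) and least like GRIA4 (r = -0.34), though over the 50 cortical groups alone the r with GRIA4 was 0.32. GRIA4 was most like GABRA4 (r = 0.68), GRIK1 most like GABRA2 (r = 0.60), GABRA2 most like GABRB1 (r = 0.66) and GABRA3 most like GABRB1 (r = 0.71). Partners depended on the groups taken. Over the 50 cortical groups GABRA2 and GRIA4 were most like each other (r = 0.87), as were GABRA3 and GRIA1 (r = 0.91). GRIK1 stayed most like GABRA2 there (r = 0.74). GABRE was the least like partner of GRIK1 (r = -0.30), GABRA2 (r = -0.44) and GABRA4 (r = -0.29), and GRIN3B that of GABRA3 (r = -0.07). GABRA4 and GABRB1, which are neighbouring genes in the T2T-MMU8v2.0 assembly, had unlike patterns (r = -0.05).

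The first comparison asked how neocortex, hippocampus and LGN differ, with 1 mean per animal and structure in the 4 animals that had all of them. Genes were called at a Benjamini-Hochberg adjusted p under 0.05 with at least a 2-fold difference, in limma fits over all genes tested. By this rule 18.1% of all genes were called among the structures, and 6 of 12 members: GRIA1, GRIA4, GRIK1, GABRA2, GABRA4 and GABRB1. At the adjusted p alone, 10 of 12 members and 78.6% of all genes passed. These and the following counts cover members that passed the filter on low values, and they are given as a description. GRIA1 was highest in the hippocampus and lowest in the LGN, and GRIA4 had the opposite order.

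GRIA1 measured 10.90, 11.43, 10.99 and 11.26 in the hippocampus of females D and E and males A and C. In the same order it measured 8.56, 8.62, 8.48 and 8.57 in neocortex and 5.95, 5.94, 5.83 and 5.73 in the LGN. The 3 structures did not overlap. GRIA1 was thus 6.02-fold higher in hippocampus than in neocortex (log2 difference 2.59 ± 0.09 SE, adjusted p = 2.64e-09). It was 6.46-fold lower in LGN than in neocortex (-2.69 ± 0.09, adjusted p = 4.47e-10) and 38.9-fold lower in LGN than in hippocampus (-5.28 ± 0.09, adjusted p = 1.38e-12). A dimmer second probe set of GRIA1 gave 1.88, -1.50 and -3.38 for the same contrasts.

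GRIA4 measured 10.09, 10.46, 10.32 and 10.14 in the LGN of the same animals, 8.91, 8.85, 8.88 and 8.77 in neocortex and 6.54, 6.78, 6.97 and 7.24 in the hippocampus. Again no structure overlapped another. It was 2.64-fold higher in LGN than in neocortex (1.40 ± 0.12, adjusted p = 1.31e-06) and 3.92-fold lower in hippocampus than in neocortex (-1.97 ± 0.12, adjusted p = 1.63e-07). A second GRIA4 probe set, with a mean of 4.68 near the median of all probe sets, did not follow this pattern (r = -0.15 over the 57 groups) and gave -0.40 and 0.24 for these contrasts. The GRIA4 results therefore hold for the brighter probe set.

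**Figure D2:**
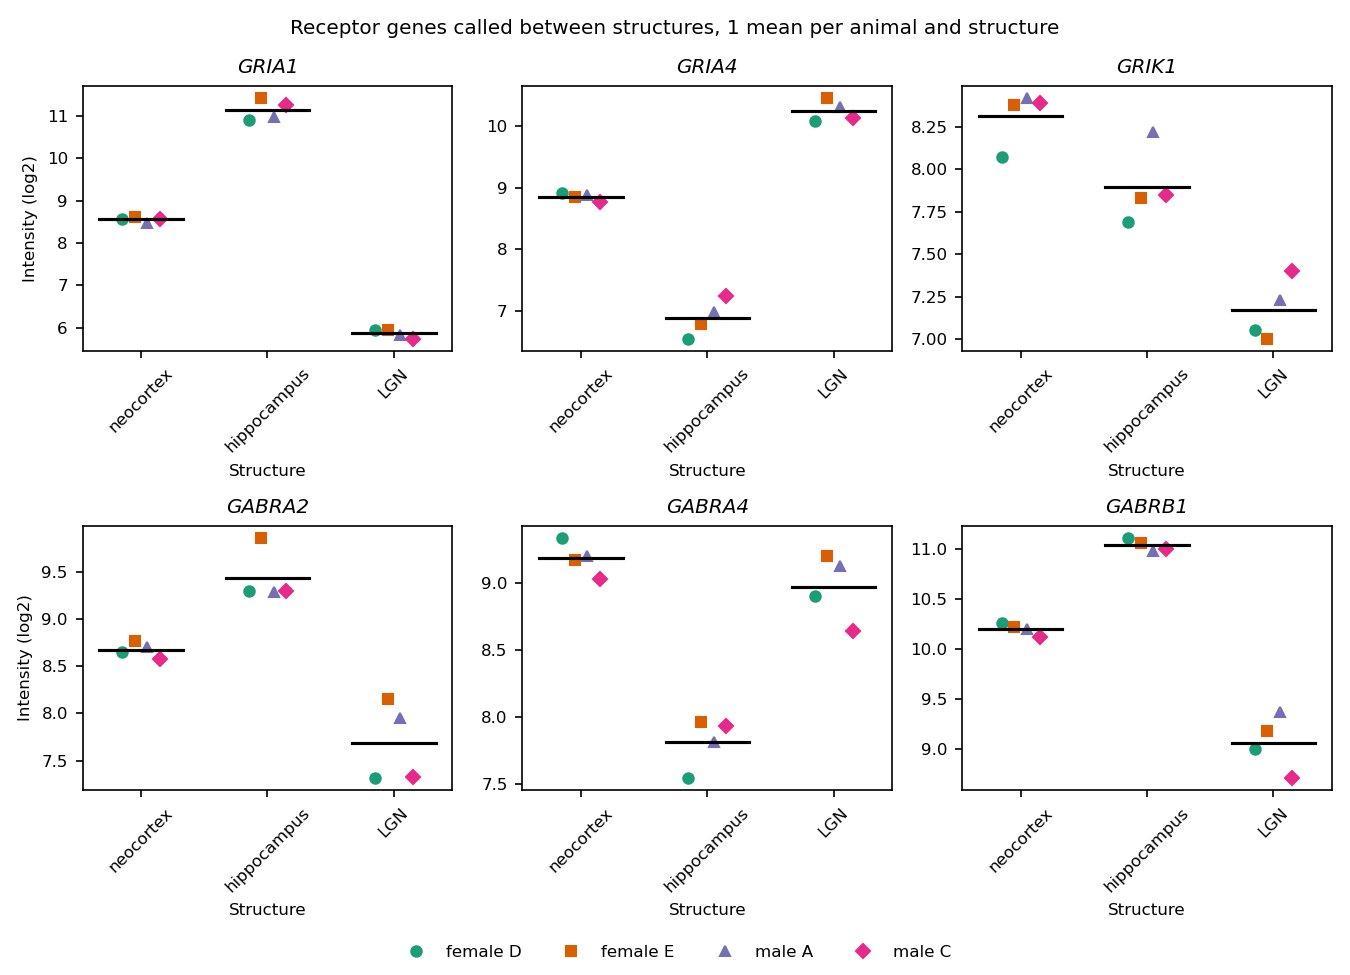
Each panel plots the log2 intensity of 1 called gene in neocortex, hippocampus and LGN, with 1 point per animal and a bar at the mean of 4 animals. For GRIA1 the hippocampal points start at 10.90 and the LGN points end at 5.95, while for GRIA4 the LGN points start at 10.09 and the hippocampal points end at 7.24.

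The kainate subunit GRIK1 was lower in LGN than in neocortex, with 7.05, 7.0, 7.23 and 7.40 against 8.07, 8.38, 8.42 and 8.39 in the same animals (-1.15 ± 0.09, adjusted p = 4.98e-07). GABRB1 was likewise lower in LGN, at 9.0, 9.18, 9.37 and 8.71, than in neocortex, at 10.26, 10.22, 10.20 and 10.12 (-1.13 ± 0.10, adjusted p = 1.31e-06). In the hippocampus GABRB1 measured 10.98 to 11.11, above all values of both other structures, and its difference of LGN from hippocampus was -1.97 ± 0.10 (adjusted p = 6.09e-09). Of its 2 other probe sets, 1 gave -0.95 and the other -0.31 for LGN against neocortex.

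GABRA4 was lower in hippocampus, at 7.54, 7.96, 7.81 and 7.93, than in neocortex, at 9.34, 9.17, 9.20 and 9.03 (-1.37 ± 0.12, adjusted p = 1.93e-06). In the LGN it measured 8.90, 9.20, 9.13 and 8.64, above every hippocampal mean (1.16 ± 0.12, adjusted p = 3.23e-06) and overlapping neocortex. These hippocampal values are means over CA1, CA2, CA3 and DG. In DG alone GABRA4 measured 8.96 to 9.51, which overlapped both LGN and neocortex. GABRA2 ran the other way, with 7.31, 8.15, 7.95 and 7.33 in LGN against 9.30, 9.87, 9.29 and 9.30 in hippocampus (-1.76 ± 0.12, adjusted p = 1.31e-07). A second GABRA2 probe set, with a mean of 3.90 under the median of all probe sets, gave -1.52. Of the alpha subunits, then, GABRA2 was lower and GABRA4 higher in LGN than in the mean of the hippocampal fields.

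The hippocampus and the LGN both lay in the wider control set. Against the cortical areas of that set alone, every call against neocortex stood. The differences were 2.79 for GRIA1, -1.84 for GRIA4 and -1.27 for GABRA4 in hippocampus. In LGN they were -2.49 for GRIA1, 1.53 for GRIA4, -1.30 for GABRB1 and -1.23 for GRIK1. GABRA2 was called only between LGN and hippocampus, a difference without cortical arrays, so this restriction could not check it. Markers of cell types moved between the structures too. The summed linear intensity of 3 of 7 listed excitatory neuron markers was 3200 to 3610 in hippocampus, 2080 to 2520 in neocortex and 1600 to 1810 in LGN. These 3 were NEUROD6, SLC17A7 and TBR1, while SLC17A6, also listed, was not measured. Excitatory neurons that lack the 3 measured genes would be missed by this sum. In the same order of structures, 5 of 7 inhibitory neuron markers summed to 1960 to 2550, 4830 to 5320 and 8230 to 9900. For 3 of 8 myelin markers the sums were 5720 to 6640, 8050 to 9340 and 11700 to 12600. Members of the inhibitory list went different ways in LGN against neocortex: PVALB was higher (3.99 ± 0.10), and LHX6 (-3.14 ± 0.07) and VIP (-5.33 ± 0.10) were lower. With PVALB at a mean of 12.68 in LGN and 8.70 in neocortex, the sum of this list need not follow the number of inhibitory neurons. Astrocyte markers (6 of 8) summed to 8140 to 9890, 9620 to 11500 and 7470 to 8280, microglial markers (7 of 7) to 580 to 703, 474 to 669 and 735 to 903, and endothelial markers (5 of 6) to 247 to 260, 352 to 420 and 434 to 599. Their part in the receptor differences was not tested. In pieces of tissue, fewer cells of a type and less RNA per cell cannot be told apart.

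Proteins that travel with these receptors also differed between the structures. Of all genes, 2.66% were called higher and 3.6% lower in hippocampus than in neocortex, and 4.03% higher and 6.38% lower in LGN than in neocortex. Of 9 measured auxiliary subunits of glutamate receptors, 2 were higher in hippocampus than in neocortex: CNIH2 (1.20 ± 0.08) and CNIH3 (1.15 ± 0.08), cornichon proteins that slow the closing of AMPA receptors. In LGN against neocortex GSG1L, an AMPA receptor auxiliary protein, was higher (1.13 ± 0.07), and CNIH3 (-1.43 ± 0.08) and OLFM1, a secreted AMPA receptor partner (-1.73 ± 0.09), were lower. Among 10 excitatory scaffold genes, 0 rose and 5 fell in LGN against neocortex, including HOMER1 (-2.09 ± 0.11), a scaffold that ties metabotropic receptors to calcium stores, and DLG1 (-1.96 ± 0.09) and DLGAP1 (-1.82 ± 0.07) of the postsynaptic density. Of 5 GABA receptor partners 1 was called in hippocampus against neocortex, KCTD8, an auxiliary subunit of GABA-B receptors (-2.23 ± 0.07), and none in LGN against neocortex. The list on transmitter synthesis and loading held SLC17A7, which fills vesicles with glutamate. SLC17A7 was higher in hippocampus (1.20 ± 0.08) and lower in LGN (-3.11 ± 0.08) than in neocortex. GAD1, which makes GABA, was lower in hippocampus than in neocortex (-1.16 ± 0.14). All these hippocampal values are means over the CA fields and DG. Both KCTD8 and GAD1 were higher in DG than in the other fields, as given below with the hippocampal fields. Their lower hippocampal means therefore need not hold for DG.

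The second comparison asked how the receptors differ among the 3 CA fields and DG, with 1 array per animal and field. Here 19.1% of all genes were called and 4 of 12 members, GRIA4, GRIK1, GABRA3 and GABRA4, with GRIK2 left out of the count because the filter settled its call. At the adjusted p alone, 10 of these 12 and 64.1% of all genes passed. DG had low GRIK1 and high GABRA4, CA3 had low GABRA4 and CA1 had high GABRA3.

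GRIK1 measured 5.60, 5.80, 5.88 and 5.97 in DG of females D and E and males A and C, while the 12 arrays of the CA fields lay between 8.15 and 9.11. DG was thus far below every CA array, 6.86-fold lower than the mean of the other fields (-2.78 ± 0.11, adjusted p = 6.97e-11). In CA2 GRIK1 measured 8.77, 8.93, 9.11 and 8.50, which overlapped CA1 and CA3. Its call against the mean of the other 3 fields (1.25 ± 0.11, adjusted p = 1.82e-06) includes the low DG values: the mean was 8.83 in CA2, 8.46 in CA1 and 8.48 in CA3.

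GRIK2 measured 6.15, 6.62, 6.94 and 6.71 in DG and 4.25 to 4.92 in the CA fields, with no overlap. Its means in the CA fields, 4.52 to 4.58, lay under the median of all probe sets, so it entered the fit only through its level in DG, and its call is given as a description, with no test. A second GRIK2 probe set, with a similar mean of 4.41, gave -0.18 for DG.

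GABRA4 measured 9.14, 9.51, 9.16 and 8.96 in DG, 7.74, 8.06, 8.34 and 8.16 in CA1, 7.79, 8.0, 7.42 and 7.89 in CA2 and 5.48, 6.28, 6.31 and 6.73 in CA3. CA1 and CA2 overlapped, and DG lay above and CA3 below all other arrays. DG was 3.59-fold higher (1.84 ± 0.16, adjusted p = 1.67e-07) and CA3 4.43-fold lower (-2.15 ± 0.16, adjusted p = 2.92e-07) than the mean of the other fields. GABRA2 had its highest hippocampal mean in CA3, at 10.05 against 9.24 in the other fields, under the 2-fold threshold (0.81 ± 0.14, adjusted p = 0.000623).

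GABRA3 measured 6.54, 6.69, 6.63 and 6.20 in CA1, while the other fields lay between 4.71 and 6.26, so that only the CA1 array of male C fell within their range. The difference was 1.01 ± 0.13 (adjusted p = 3.25e-05), and without male A it was 0.92, under 2-fold. GRIA4 ranged over 1.04 among the fields (adjusted p = 0.00442), from 6.29, 6.07, 6.57 and 6.42 in CA1 to 6.60, 6.91, 7.70 and 8.30 in CA3, with CA2 (6.61 to 7.91) overlapping CA3 and DG (6.34 to 6.68) overlapping every other field. Animals spread by more than the range of the field means in CA2 and CA3. Without male C its range was 0.85. GRIA1 measured at least 10.35 on all hippocampal arrays, with a range of 0.76 among field means, under 2-fold.

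**Figure D3:**
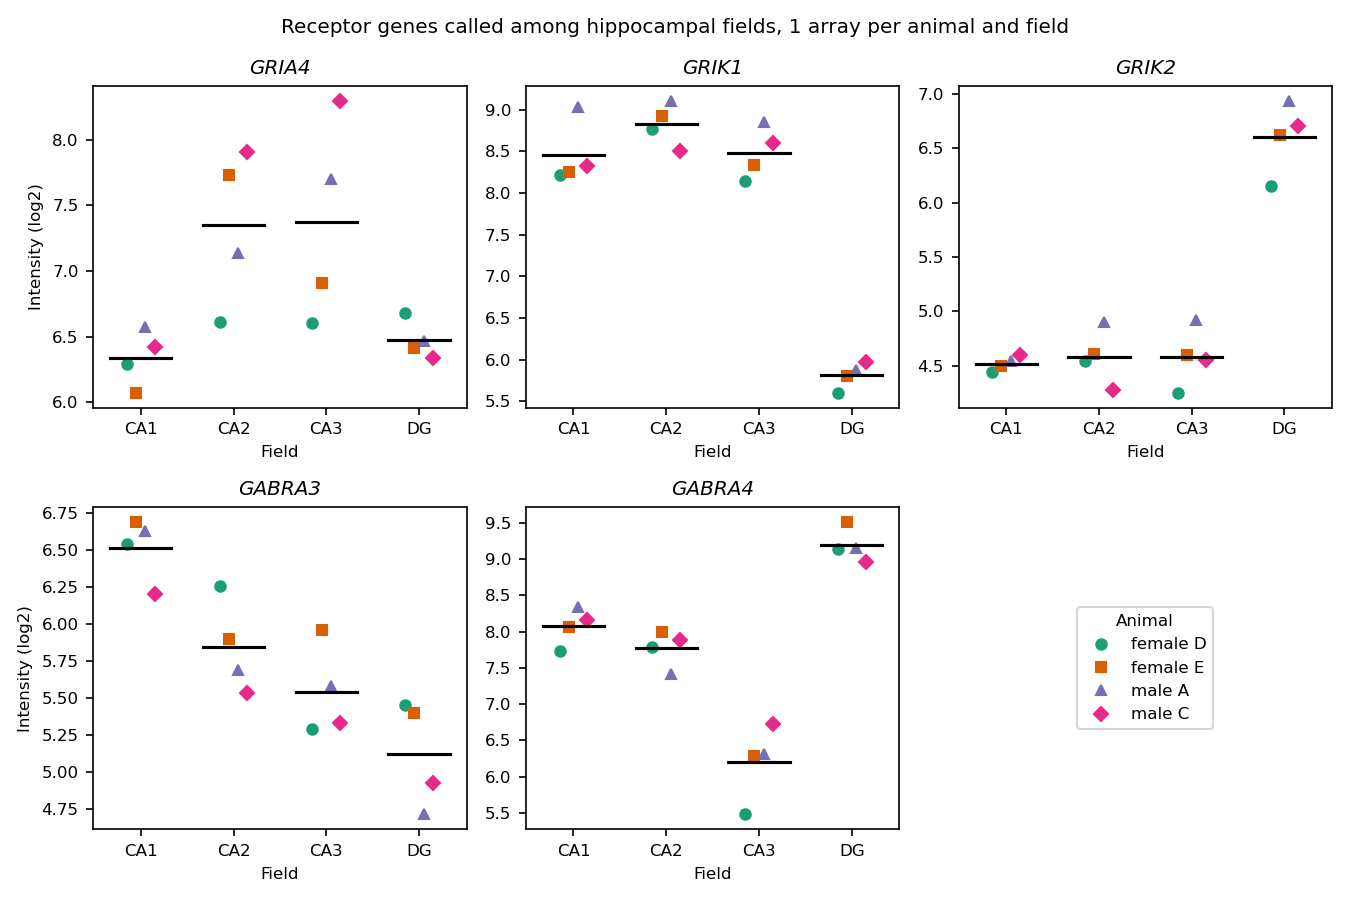
Each panel plots the log2 intensity of 1 gene in the CA fields and DG, GRIK2 as a description only, with 1 point per animal and a bar at the mean of 4 arrays. DG stands apart in GRIK1 (5.60 to 5.97) and GRIK2 (6.15 to 6.94), and GABRA4 falls from DG (8.96 to 9.51) to CA3 (5.48 to 6.73).

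Among auxiliary subunits in DG, GSG1L was higher (1.31 ± 0.09) and CNIH2 lower (-1.33 ± 0.15) than in the other fields, and CNIH3 was higher in CA1 (1.22 ± 0.11) and lower in CA3 (-2.12 ± 0.11). Of the scaffolds, 1 was called in DG, DLG2 (-1.01 ± 0.09). KCTD8 was 10.2-fold higher in DG (3.36 ± 0.25) and lower in CA2 (-1.16 ± 0.25) and CA3 (-2.12 ± 0.25) than in the other fields. Its calls in CA2 and CA3 include the high DG values. The mean was 8.39 in DG, 5.00 in CA2 and 4.28 in CA3, so CA2 lay above CA3. GAD1 was higher in DG (1.56 ± 0.17), where ABAT, which breaks GABA down, was lower (-1.20 ± 0.11), and GAD1 was lower in CA1 (-1.47 ± 0.17). The summed level of the inhibitory neuron markers was 3710 to 5010 in DG, 849 to 1350 in CA1, 2170 to 2800 in CA2 and 1370 to 3310 in CA3. That of the excitatory neuron markers was 2230 to 2970, 2830 to 3810, 3030 to 4380 and 5830 to 6160, and that of the myelin markers 5150 to 6410, 4300 to 5590, 6670 to 8770 and 7960 to 8760. Microglial markers summed to 396 to 438 in DG and 564 to 936 in the CA fields, endothelial markers to 179 to 215 and 248 to 316, and astrocyte markers to 5980 to 8050 and 7540 to 13500. Within these lists GAD1 and the astrocyte marker ALDH1L1 (2.74 ± 0.14) were higher in DG, while PVALB (-1.70 ± 0.20), VIP (-1.54 ± 0.33) and NEUROD6 (-5.43 ± 0.21) were lower there. Their part in the receptor differences was not tested.

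The third comparison asked how the receptors differ among layers 2 to 6 in the areas with all 5 layers (A1, S1, DLPFC, V2, MT and TE), with area differences removed and 1 mean per animal and layer in 4 animals. Of all genes 6.61% were called, and of the members 5 of 12: GRIA1, GRIA4, GRIK1, GABRA2 and GABRE. At the adjusted p alone, 9 of 12 members and 62.4% of all genes passed. GRIA4, GRIK1 and GABRA2 were highest in layer 2 and lowest in layer 6, GABRE had the opposite order, and GRIA1 was lowest in layers 3 and 4.

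GRIA4 measured 8.18, 8.01, 7.97 and 7.95 in layer 6 of females D and E and males A and C, against 9.63, 9.75, 9.73 and 9.68 in layer 2. Layer 3 (9.56 to 9.72) overlapped layer 2, layers 4 and 5 (8.60 to 8.88) overlapped each other, and layer 6 lay below all of them. The difference of layer 6 from the other layers was -1.17 ± 0.05 (adjusted p = 8.05e-12). The second, dim probe set of GRIA4 gave 0.03.

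GRIA1 measured 9.30, 9.31, 9.26 and 9.22 in layer 2 and 8.02, 8.17, 8.27 and 8.14 in layer 3. Layer 4 (8.13 to 8.38) overlapped layer 3, while layers 5 (8.70 to 8.91) and 6 (8.82 to 9.03) lay between layer 4 and layer 2. Over all layers it ranged by 1.12 (adjusted p = 3.17e-10), and no single layer differed by 2-fold from the rest.

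GRIK1 measured 9.31, 9.36, 8.91 and 9.13 in layer 2, above all other layers, and 7.75, 7.76, 7.90 and 7.85 in layer 6, below all others, with a range of 1.36 (adjusted p = 1.19e-08). GABRA2 ran from 9.29 to 9.46 in layer 2 through 8.81 to 9.05 in layer 4 to 8.12 to 8.46 in layer 6, a range of 1.06 (adjusted p = 2.44e-09) that became 0.96 without male C. GABRE ran the other way, from 5.19, 4.79, 4.06 and 4.76 in layer 2 to 6.04, 6.32, 6.67 and 6.4 in layer 6. Layer 6 lay above all other layers for GABRE (1.12 ± 0.13, adjusted p = 2.01e-06), and without male A the difference was 0.99.

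**Figure D4:**
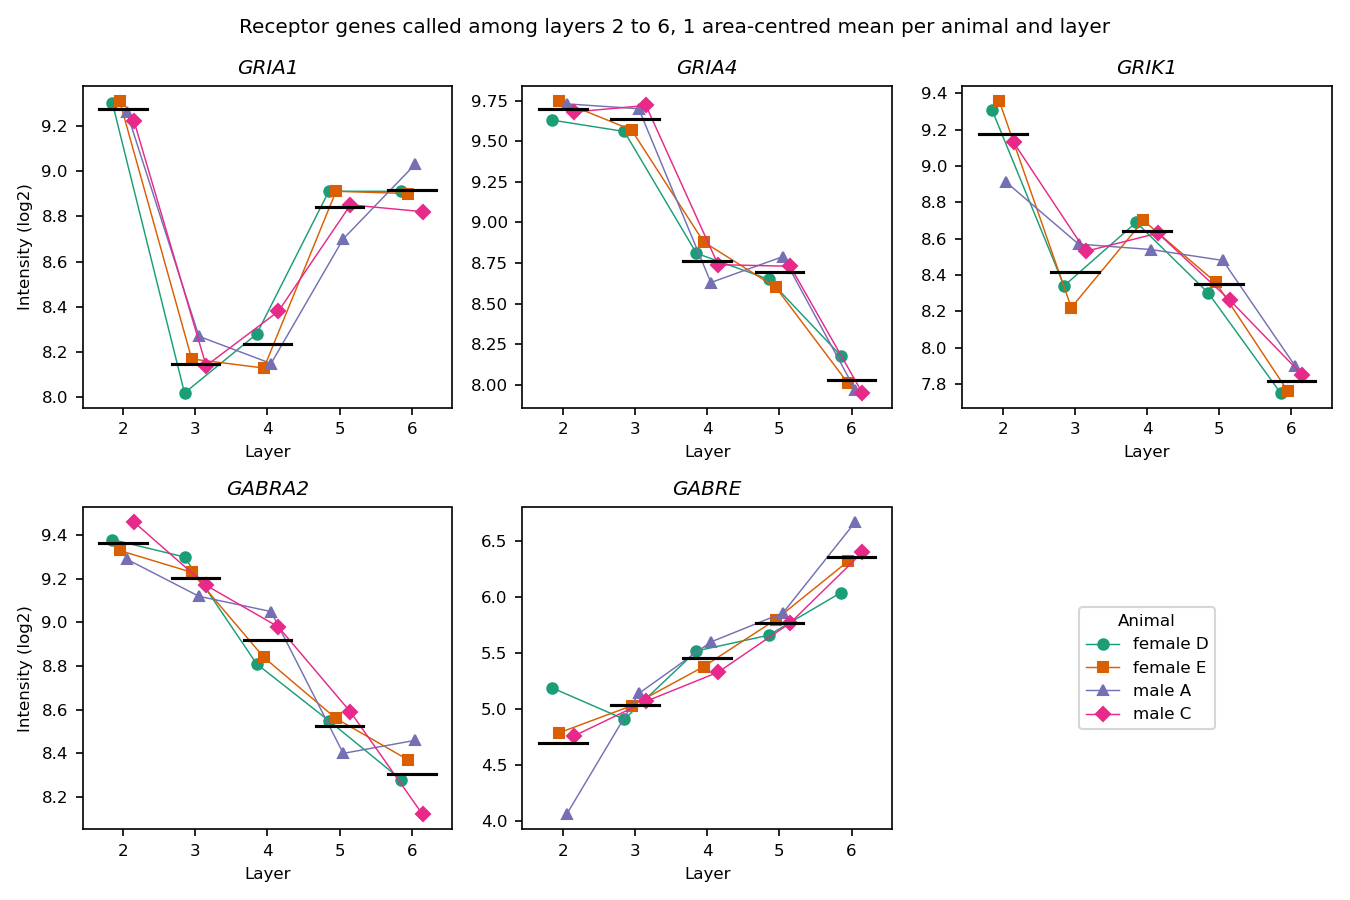
Each panel plots the log2 intensity of 1 called gene in layers 2 to 6, area-centred and averaged over areas, with 1 line per animal and a bar at the mean of 4 animals. GRIA4, GRIK1 and GABRA2 fall toward layer 6, GABRE climbs to 6.04 to 6.67 there, and GRIA1 is lowest in layers 3 and 4 (8.02 to 8.38).

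Across all 10 areas, with 5 animals, layers 5 and 6 were compared with layers 2 and 3. Here 2.13% of all genes and 1 of 12 members were called, GRIA4. Its animal differences lay between -1.35 and -1.18, and the fitted difference was -1.28 ± 0.05 (adjusted p = 1.16e-12), while the second GRIA4 probe set gave -0.22. Under the 2-fold threshold, GABRA2 (-0.92 ± 0.05, adjusted p = 1.01e-11), GABRA4 (-0.73 ± 0.09, adjusted p = 2.75e-06) and GABRE (0.91 ± 0.10, adjusted p = 3.28e-07) passed the adjusted p alone. With GRIK1, GRIN2C and GRIA1, 7 members did, against 38.5% of all genes.

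Of 9 auxiliary subunits tested, CNIH3 alone was called among the layers. It was lower in layer 2 (-1.74 ± 0.08) and higher in layer 5 (1.24 ± 0.08) than in the other layers, and 3.44-fold higher in deep than in upper layers (1.78 ± 0.05, adjusted p = 1.35e-14). No other gene of the pathway lists was called in a layer, of 10 scaffolds, 5 GABA receptor partners and 5 genes of transmitter synthesis and loading that were tested. The summed level of the myelin markers was 6340 to 6690 in layer 2 and 12100 to 14100 in layer 6, and that of the inhibitory neuron markers 6500 to 7270 and 3220 to 3840. Excitatory neuron markers summed to 1980 to 2280 in layer 2 and 2420 to 2630 in layer 6, and astrocyte markers to 11200 to 12100 and 8920 to 9290. Their part in the receptor differences was not tested.

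The fourth comparison asked how the 10 areas differ, with layers 2, 3, 5 and 6 averaged per animal and area. Of all genes 9.2% were called, and of the members 3 of 12: GRIA1, GABRA3 and GABRB1. At the adjusted p alone, 12 of 12 members and 76.8% of all genes passed. All 3 were high in ACG and lowest in V1.

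GRIA1 measured 9.50, 9.69, 9.55 and 9.63 in ACG (female D, female E, male A, male B) and 7.99, 8.26, 7.65 and 8.07 in V1 (female D, female E, male A, male C), a range of 1.58 over the areas (adjusted p = 2.59e-10). V2, at 7.96 to 8.17, overlapped V1, MT, at 8.13 to 8.79, overlapped V1 and V2, and every other area lay at 8.59 or higher. No single area differed by 2-fold from the mean of the others. The nearest were V1 (-0.94 ± 0.10, adjusted p = 1.28e-08), V2 (-0.86 ± 0.10, adjusted p = 1.95e-07) and ACG (0.82 ± 0.10, adjusted p = 4.91e-07).

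GABRA3 measured 4.88, 5.16, 4.56 and 4.84 in V1, and the other areas lay between 4.81, in V2 of male C, and 6.81, in ACG of female E. The V1 value of male A lay under 4.76, the median of all probe sets. V1 differed from the other areas by -1.08 ± 0.14 (adjusted p = 2.34e-07), and by -0.99 without male A. GABRB1 measured 9.85, 9.69, 9.59 and 9.66 in V1, below every value of the other areas (10.02 to 11.07), with a range of 1.23 (adjusted p = 1.94e-10). Its difference in V1 was -0.80 ± 0.07 (adjusted p = 2.68e-10), under 2-fold.

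In V1 against the other areas, 9 of the 12 members were lower and 0 higher at the adjusted p alone, where 30.4% of all genes were lower and 14.3% higher. The median difference was -0.57 over the members and -0.06 over all genes. In V2, 8 members were lower and 2 higher, where 30.8% of all genes were lower and 13% higher, and the 2 higher ones were GRIN3B (0.46 ± 0.09) and GRID2IP (0.29 ± 0.06). Against the same 30.4% of all genes, the markers lower in V1 at the adjusted p alone were 5 of 6 microglial, 3 of 5 astrocyte, 3 of 4 endothelial, 3 of 3 excitatory neuron and 1 of 3 myelin markers. Of the inhibitory neuron markers, 3 were lower and 1 higher of 5. Summed levels in V1 were 7900 to 9040 for the myelin markers and 4520 to 5540 for the inhibitory neuron markers, and both overlapped other areas. The part of these cell types in the receptor differences was not tested.

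Visual areas V1 and V2 were then compared with ACG, OFC and DLPFC. Here 1.48% of all genes and 2 of 12 members were called, and at the adjusted p alone 42.8% of all genes and 9 of 12 members. GABRA3 was lower in the visual areas (-1.11 ± 0.13, adjusted p = 2.62e-08), with animal differences from -1.56 to -0.75, and so was GRIA1 (-1.10 ± 0.09, adjusted p = 7.33e-11), with -1.75 to -0.86. Male A had ACG as its only frontal area and male C had no ACG, so the spread of these animal differences mixes animal with frontal area. The second GRIA1 probe set gave -0.86. Without male C the GABRA3 difference was -1.0, just under 2-fold. GABRB1 stood at -0.91 ± 0.06 and GRIA4 at -0.54 ± 0.07, both under 2-fold. The pathway lists had no called gene in this contrast or in V1 against the other areas.

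Within the control sets the calls stood, with -1.25 for GABRA3 in V1, and -1.19 for GABRA3 and -1.21 for GRIA1 in visual against frontal areas. The level of the spiked poly-A control RNA, averaged over 27 probe sets, was 9.15 ± 0.51 (SD) on the arrays of V1 and 9.0 ± 0.60 on those of V2, against area means of 7.78 to 8.54 elsewhere. With this level as a covariate, a choice made after seeing the data, the same contrasts gave -1.44 ± 0.23, -1.48 ± 0.23 and -1.16 ± 0.18.

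**Figure D5:**
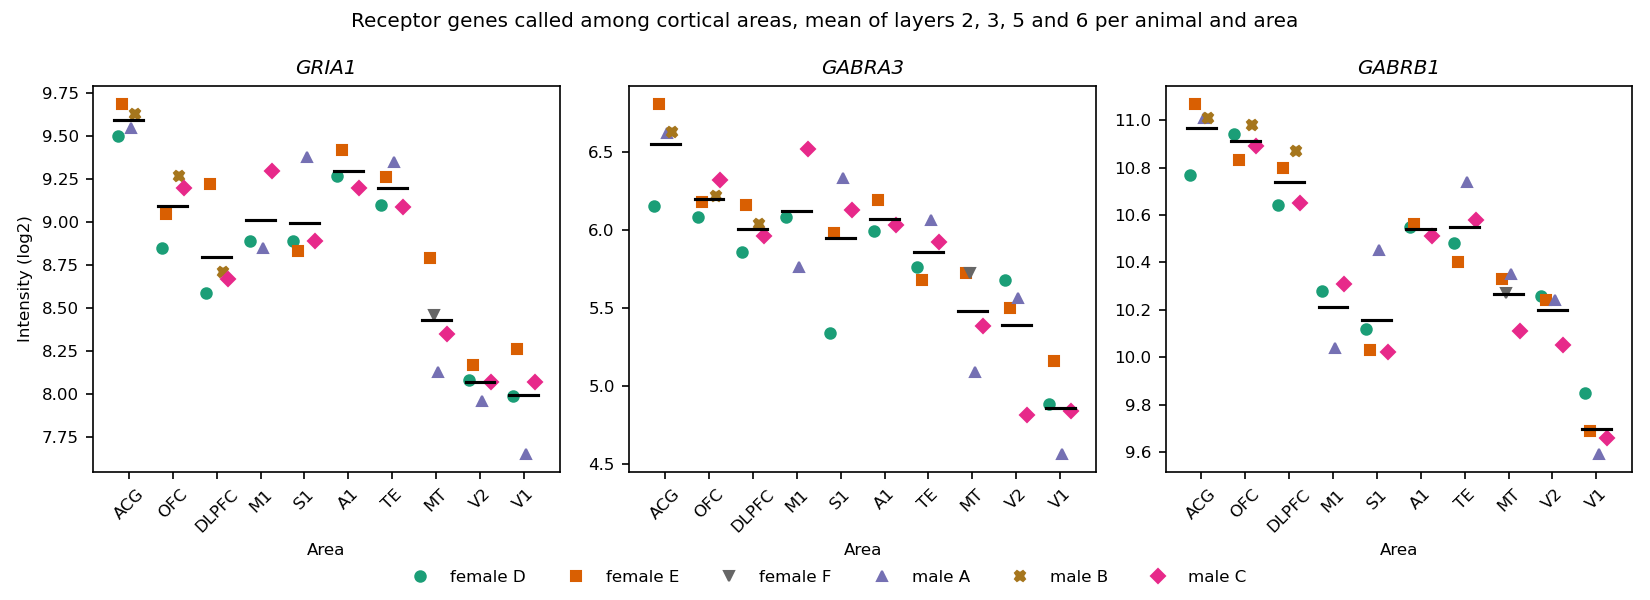
Each panel plots the log2 intensity of 1 called gene in 10 cortical areas, with 1 point per animal (mean of layers 2, 3, 5 and 6) and a bar at the mean of the 3 or 4 animals of that area. GRIA1 is highest in ACG (9.50 to 9.69) and lowest in V1 and V2, and for GABRB1 all V1 points (9.59 to 9.85) lie below every other area.

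The fifth comparison took V1 alone, whose layer 4 is divided into 4A, 4B, 4Ca and 4Cb, with 1 array per animal and layer. Of all genes 14.7% were called, and of the members 7 of 11: GRIA1, GRIA4, GRIK1, GRIN2C, GABRA2, GABRB1 and GABRE. At the adjusted p alone, 8 of 11 members and 25.8% of all genes passed. GABRA3 was under the threshold for testing here.

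GRIA1 measured 9.19, 8.74, 8.43 and 8.93 in layer 6 of females D and E and males A and C, above all V1 arrays outside layer 2, which it overlapped (1.68 ± 0.27, adjusted p = 6.83e-05). In layer 2 it measured 8.13, 8.96, 8.15 and 7.88, and was 1.06 ± 0.27 above the other layers (adjusted p = 0.00636). In layer 4Ca it measured 6.58, 4.88, 6.37 and 7.39, a difference of -1.20 ± 0.27 (adjusted p = 0.00339). The value of 4.88 came from the V1 array least like the others of its layer (r = 0.96). Without that array, a choice made after seeing the data, the layer 4Ca difference was -0.69 (adjusted p = 0.0817), that of layer 2 was 0.99 and that of layer 6 was 1.61. Without female E altogether, layer 4Ca gave -0.69 (adjusted p = 0.0699) and layer 2 gave 0.76. The second GRIA1 probe set gave 1.17 in layer 6, 0.27 in layer 2 and 0.05 in layer 4Ca.

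GABRB1 measured 9.85 to 10.19 in layer 2, 9.56 to 10.07 in layer 6 and 9.49 to 9.72 in layer 5. It fell to 8.72 to 9.14 in layer 4Cb, 8.40 to 8.92 in layer 4Ca and 8.10 to 9.14 in layer 4B, a range of 1.37 (adjusted p = 2.36e-07). GRIA4 ranged by 1.1 (adjusted p = 0.00104), between 8.63 to 9.02 in layer 2 and 7.59 to 8.0 in layer 5. Both genes had their highest mean in layer 2 of V1, where GABRB1 overlapped layer 6 and GRIA4 overlapped layers 3, 4A and 4Cb and touched layer 4B.

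GRIK1 measured 8.83, 8.60, 8.52 and 9.24 in layer 2 of V1, above every array of the other layers (1.18 ± 0.25, adjusted p = 0.00135), and without male C the difference was 0.99. Without female E its range over the layers had an adjusted p of 0.0682. GRIN2C measured 6.54, 6.91, 6.07 and 7.50 in layer 4Cb, where male A overlapped other layers (1.07 ± 0.21, adjusted p = 0.00179). Without male C this was 0.86 (adjusted p = 0.068) and without female E 0.99, and without female D the range over layers had an adjusted p of 0.119. Of its other probe sets 1 gave 0.90 and 1 gave -0.36. GABRA2 measured 6.32, 6.60, 7.67 and 7.77 in layer 4Ca, overlapping other layers (-1.05 ± 0.26, adjusted p = 0.00806). That call was lost without female D (-0.80, adjusted p = 0.0931), without female E (-0.82, adjusted p = 0.152) and without the array least like its layer (-0.82, adjusted p = 0.0964). The second, dim probe set of GABRA2 gave -0.32 for layer 4Ca. GABRE had no called layer, and its range of 1.28 (adjusted p = 0.0433) was not called without female E (adjusted p = 0.249), male A (0.0787) or male C (0.408).

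CNIH3 again differed by layer in V1, lower in layers 2 (-1.45 ± 0.20) and 3 (-1.71 ± 0.20) and higher in layers 4Ca (1.14 ± 0.20) and 4Cb (1.55 ± 0.20). SLC17A7 was higher in layer 6 (1.07 ± 0.19), GAD2, which makes GABA, was lower in layer 2 (-1.33 ± 0.44) and DLGAP1 lower in layer 4B (-1.39 ± 0.43). The summed level of the excitatory neuron markers was 1980 to 2750 in layer 6, 1390 to 2090 in layer 2 and 1760 to 2470 in layer 4Ca, and that of the inhibitory neuron markers 4110 to 4290, 5500 to 6490 and 6370 to 7110. Poly-A control levels had layer means of 8.66 in layer 4Cb to 9.71 in layer 4B. Their part in the receptor differences was not tested.

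The deep minus upper difference in V1 was also set against the mean of that difference over the animal's other areas. In limma 0.525% of all genes and 0 of 12 members were called, with 0.808% of genes and 0 members at the adjusted p alone and 4 members at an unadjusted p under 0.05. The largest was GABRE, which measured -0.77, 0.32, 0.94 and 0.78 in V1 against 0.83, 0.95, 1.33 and 1.18 elsewhere (-0.75 ± 0.22, adjusted p = 0.186). GRIA1 was next, with 1.19, 0.02, 0.63 and 1.06 in V1 against 0.22, 0.02, 0.01 and 0.16 (0.62 ± 0.18, adjusted p = 0.187). V1 was lower for GABRE in all 4 animals and higher for GRIA1 in 3 of 4. Within the control set of V1 the values were -1.03 (adjusted p = 0.0893) and 0.77 (adjusted p = 0.111).

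The last comparison asked how the magnocellular, parvocellular and koniocellular divisions of the LGN differ. In limma 0.395% of all genes and 0 of 12 members were called, with 3.01% of genes and 0 members at the adjusted p alone and 1 member at an unadjusted p under 0.05. The largest difference was in GRIK1, which measured 7.39, 7.23, 7.78 and 7.37 in the magnocellular and 5.97, 6.89, 7.10 and 7.68 in the parvocellular division (0.53 ± 0.29, adjusted p = 0.563). GABRE measured 5.18, 5.90, 6.36 and 5.99 in the koniocellular and 5.58, 5.38, 5.49 and 5.42 in the parvocellular division (0.39 ± 0.19, adjusted p = 0.617). The divisions overlapped for both genes, and each held the direction in 3 of 4 animals. Myelin markers summed to 13000 to 14500 in the koniocellular, 10700 to 12200 in the magnocellular and 10100 to 11500 in the parvocellular division, and their part was not tested.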

How the data were processed

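The authors deposited log10 intensities of GeneChip Rhesus Macaque Genome arrays. Per the file headers these came from RMA within each amplification batch in Matlab 2007b, after which every probe was scaled on whole brain control samples shared by the batches. For this report they were multiplied by the log2 of 10, and all log2 values here derive from those deposited values. Of 52865 probe sets, 24969 carried 1 symbol, 361 several and 27535 none. Names came from the platform annotation and, for all 22 members, matched the RefSeq gene list of T2T-MMU8v2.0 by Entrez ID.

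Each comparison used limma 3.58.1 in R 4.3.3 (with version 1.17.8 of data.table), with Benjamini-Hochberg adjustment over all genes tested. Animal was a fixed block, and the genes tested had a mean over the comparison's units above the median of all probe sets. The V1 deep minus upper difference was an exception. It had no block, since each value was a difference within an animal, and its filter used the mean over all cortical arrays. Genes were called at an adjusted p under 0.05 and a 2-fold difference (for several levels, a 2-fold range of fitted means). Errors after ± are standard errors unless SD is written. Animals needed at least 3 areas for the layer comparisons. Whether arrays of an animal belong together was checked. With group means taken out, pairs from the same animal correlated with a median r of 0.174 (5367 pairs), and pairs from different animals with -0.0493 (19500 pairs). No 2 arrays were alike beyond r = 0.994. The 27 control arrays entered no comparison.

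The fits were tested on simulated data. Members and gene lists were chosen with earlier results of these data known. Named with values were all called members, or where none was called the 2 largest differences, and up to 4 called genes of each pathway list per contrast. Alternatives were no block, no filter, the mean of all probe sets, quantile normalization, a 1.5-fold threshold, leaving out each animal and the control sets. The number of arrays limits the precision.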

Additional observations from a re-analysis of the deposited data

Results flagged for a closer look

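Among 54 groups of values examined for the named results, 2 had 1 animal far from the others, where chance gives about 1 in 20 groups. Both came from male A. The difference of GABRA3 between CA1 and the other hippocampal fields was 1.30 in male A and 0.87 to 0.94 in the other 3 animals. In CA1 itself GABRA3 of male A measured 6.63, within the 6.20 to 6.69 of the others. Its DG value of 4.71 was the lowest of the hippocampus. The level of GRIK1 in CA1 was 9.03 in male A and 8.22 to 8.32 in the others.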

How the results depend on the processing

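No value turned its direction under the alternatives of the fits. Single dimmer probe sets of GRIA4, GRIK2, GRIN2C and GRIA1 gave the opposite sign for some contrasts, as given beside those results. With the mean of all probe sets of a gene in place of the brightest, the members called numbered 2 among layers, 0 for deep against upper layers, 1 for visual against frontal areas and 3 among layers of V1. This averages dim with bright probe sets: GRIA4 then gave -0.75 for deep against upper layers. With a 1.5-fold threshold the counts were 8 among layers, 4 for deep against upper layers, 10 among areas, 4 for visual against frontal areas and 10 among hippocampal fields. The hippocampal counts here include GRIK2. Without the animal as a replicate block, 6 members were called among layers of V1, where GABRE was lost, and the block changed no other count. Leaving out 1 animal at a time gave 4 to 6 members among layers, 1 for deep against upper layers, 3 to 4 among areas, 1 to 2 for visual against frontal areas (1 without male C), 4 to 6 among layers of V1 (4 without female E or male C), 4 to 6 among hippocampal fields, 6 between structures and 0 for the V1 deep-upper difference and the LGN. Quantile normalization left 4 among hippocampal fields, and no filter gave 4 among areas. Of the values of named genes under an alternative, 550 kept their call and 52 lost it, all in the same direction. With 4 to 6 animals per comparison and the fold thresholds used, calls near 2-fold are the least certain, and dim probe sets bound what can be said of 10 members. Over all genes, calls moved by over 1.5 times as follows. The mean of all probe sets gave 139 in place of 219 for deep against upper layers, 539 in place of 946 among areas, 96 in place of 152 for visual against frontal areas and 25 in place of 41 in the LGN. A 1.5-fold threshold gave 1670 in place of 680 among layers, 604, 3763 and 662 for the next 3, 83 in place of 54 for the V1 deep-upper difference, 2433 in place of 1496 among layers of V1, 4274 in place of 1968 among hippocampal fields, 239 in the LGN and 3857 in place of 1877 between structures. Leaving out 1 animal gave 7 to 24 for the V1 deep-upper difference, and in the LGN 19 without female E, and 5 without the block.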
